A study of Mus musculus with 6 samples.

Results

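The genes that guide lymphocytes into lymphoid tissue and out of it again were followed in splenic CD8+ T cells of mice with ablated tumors. They were 7 receptor and adhesion genes picked by name, Ccr7, S1pr1, S1pr4, Cd69, Cxcr4, Itga4 and Itgb7, out of 28773 genes in the deposited tables, and each of the 7 symbols mapped to a single gene ID. The choice used no measured value of these libraries, but it was made with earlier results of the same data known.

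Bulk RNA sequencing of CD8+ T cells isolated from spleens was done to ask what the addition of 2DG to microwave ablation (MWA) changed in these cells. Both groups had received MWA, which heats and destroys the primary tumor, and both were sampled on day 35 of the study's schedule. MWA+PBS mice (3 samples, replicates 1 to 3) were given the vehicle PBS, and MWA+2DG mice (3 samples, replicates 4 to 6) were given 2-deoxy-D-glucose (2DG), a glucose analogue that blocks glycolysis. The study used female mice and injected 2DG into the peritoneum repeatedly after ablation, ending before the cells were taken, and it separated the CD8+ cells with an isolation kit. The labels name neither the strain, the age nor the tumor line of these mice, and they do not say that each sample was a separate animal, so p-values measure the spread between these samples, which may be technical. They give no batch either, so a batch that ran with the treatment cannot be told apart from it.

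Recirculating T cells enter lymph nodes and the white pulp of the spleen by following chemokines that bind CCR7, and they leave when sphingosine-1-phosphate (S1P), which is high in blood and lymph, engages S1PR1. CD69, an early activation antigen, binds S1PR1 and takes it off the cell surface, so that activated cells are held back. CXCR4 responds to CXCL12, which marks the bone marrow and other stromal niches, and the α4 integrin pairs with β1 or β7 to bind VCAM-1 or MAdCAM-1 on vessel walls.

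Of the 7 genes, 3 were higher in MWA+2DG (S1pr1, Ccr7 and Itgb7), 1 was lower (Cxcr4), and 3 (S1pr4, Cd69 and Itga4) did not pass the test. The largest rise was 1.755-fold, in S1pr1, and the fall of Cxcr4 was 2.10-fold. All 7 passed the filter of a mean of at least 1 FPKM over the 6 samples, where FPKM is fragments scaled by the length of the transcript and by the mapped fragments of the library. Genes were called where limma's p, adjusted by Benjamini-Hochberg over all tested genes, was below 0.05, and the study's own rule (unadjusted P below 0.05, fold beyond 0.25 on the log2 scale) called the same 4. Calls were common in this comparison, with 39.4% of the 12444 tested genes past the adjusted p (22.3% higher and 17.1% lower) and 38.2% past the study's rule (21.6% higher and 16.6% lower). The count of 4 of 7 was therefore read gene by gene, and the median log2 fold change of the 7 genes, 0.01, was next to that of all tested genes, 0.05. Fold changes are on the log2(FPKM + 1) scale, as MWA+2DG minus MWA+PBS.

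**Figure D1:**
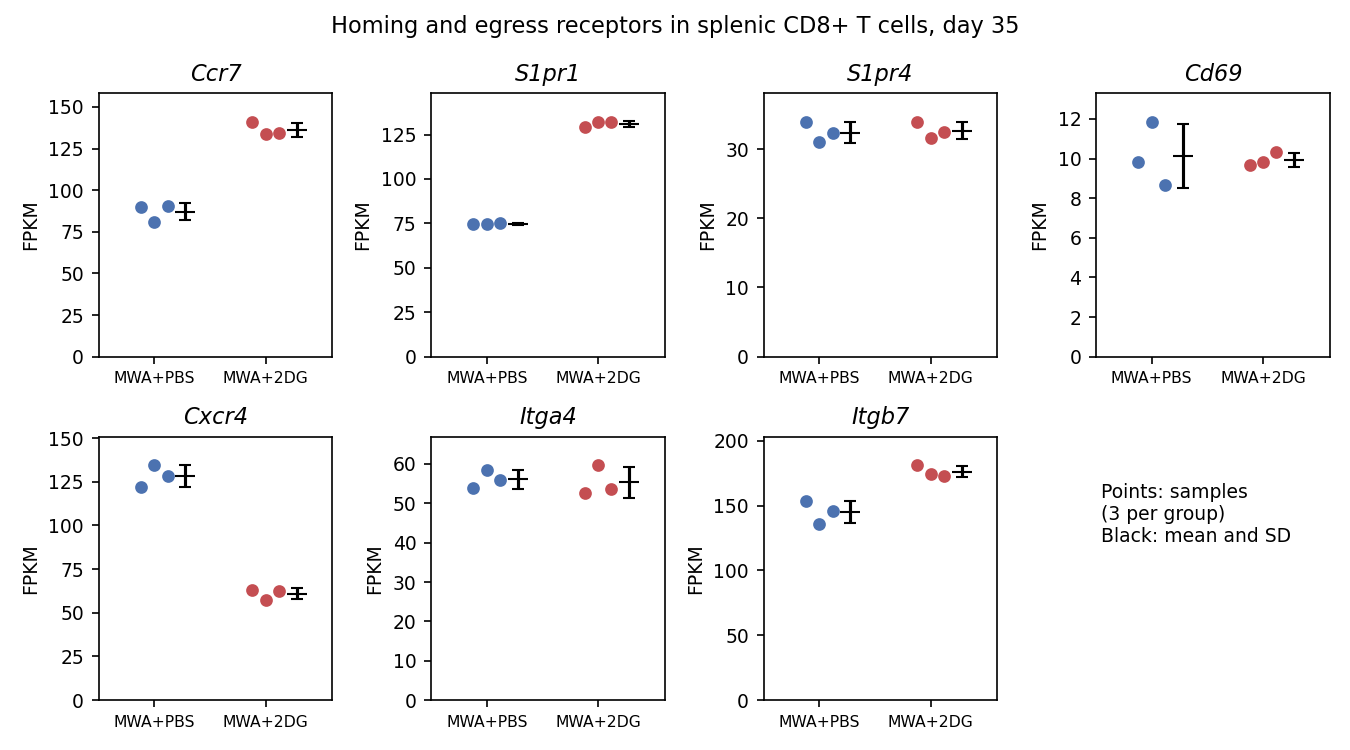
FPKM of the 7 genes in each of the 3 MWA+PBS (blue) and 3 MWA+2DG (red) samples, each panel with its own linear axis from 0 and with the group mean and SD in black. The groups are apart for Ccr7, S1pr1, Itgb7 (higher in MWA+2DG) and Cxcr4 (lower), and overlap for S1pr4, Cd69 and Itga4.

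Some facts of the whole comparison bear on every value given here. FPKM totals were between 291803 and 313257 per sample and overlapped between the groups, and the read depth is unknown. MWA+PBS samples had 12480 to 12515 genes at 1 FPKM or more, MWA+2DG samples had 12198 to 12282, and the mitochondrial share of FPKM ran from 21.41% to 22.84% in the former and from 19.41% to 20.74% in the latter. Neither measure overlapped between the groups, and their part in the results was not tested. The label of CD8+ T cells was met by Cd8a, which averaged 231.5 ± 6.96 FPKM with PBS and 366.4 ± 9.47 FPKM with 2DG (SD, n = 3 each), and by Cd3e (97.3 ± 7.98 and 127.0 ± 13.2), against Cd4 at 2.75 ± 0.16 and 1.66 ± 0.11. The T lineage genes as a list were themselves higher in MWA+2DG, with 15 of 18 called higher, 0 called lower, and a mean log2 fold change of 0.40. Genes of other cells moved as well. All 10 neutrophil markers were higher, their summed level going from 56.0 to 81.8 FPKM in MWA+PBS to 1539 to 1713 in MWA+2DG, all 10 monocyte and macrophage markers were lower (589.8 to 643.8 against 89.2 to 96.2), all 8 erythroid markers were lower (302.2 to 358.5 against 71.5 to 89.2), and 8 of 10 B cell markers were higher (81.1 to 99.7 against 127.6 to 133.7). Most of the B cell sum in MWA+PBS was Cd74, a gene of all antigen-presenting cells that was not called (76.1 ± 9.33 and 71.6 ± 4.15 FPKM), and Bank1 was called lower (-0.73). In bulk RNA, a change in the share of a cell type and a change of RNA per cell cannot be told apart, and the part of these cell types in the results was not tested. Values are therefore also given after scaling each sample to its mean T lineage level, a scaling that subtracted 0.40 from every log2 fold change and moved the median of all tested genes from 0.05 to -0.36, and the values after it are read against that median.

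Ccr7 encodes the receptor for CCL19 and CCL21, the chemokines of T cell zones. Ccr7 (ENSMUSG00000037944) was 89.62, 81.04 and 90.35 FPKM in the 3 MWA+PBS samples and 141.10, 133.63 and 134.25 FPKM in the 3 MWA+2DG samples. Every MWA+2DG sample was above every MWA+PBS sample, which was so in one direction or the other for 52.1% of tested genes. The means were 87.0 ± 5.18 and 136.3 ± 4.15 FPKM (SD, n = 3), a log2 fold change of 0.64 ± 0.06 (SE, 95% confidence interval 0.50 to 0.78, limma adjusted p = 0.000177). This log2 fold change, with its sign, was above that of 95.3% of the tested genes and of 16 of the 18 T lineage genes. After scaling to the T lineage it was 0.24 (limma adjusted p = 0.00959), still above 0 but under the fold threshold of the study's rule. B cells also express Ccr7, and the part of the B cell and neutrophil markers, which rose with it, was not tested.

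Cxcr4 is the receptor for CXCL12 and the marrow-homing receptor of the set. In MWA+PBS, Cxcr4 (ENSMUSG00000045382) was at 121.75, 134.45 and 128.36 FPKM, and in MWA+2DG at 63.13, 57.22 and 62.45 FPKM. The groups did not overlap, and the highest MWA+2DG sample lay far below the lowest MWA+PBS sample. Mean levels of 128.2 ± 6.35 and 60.9 ± 3.23 FPKM (SD, n = 3) gave a log2 fold change of -1.06 ± 0.06 (SE, 95% confidence interval -1.21 to -0.92, limma adjusted p = 1.73e-05). A fall beyond 1 on the log2 scale with an adjusted p under 0.05 was found in 3.84% of tested genes, and 3.58% had a lower value than Cxcr4. It was the only one of the 7 whose direction was opposite to the T lineage list and called, and it was -1.47 after scaling to that list (limma adjusted p = 1.1e-06). The monocyte and macrophage markers and the erythroid markers fell alongside Cxcr4, and the neutrophil and B cell markers, which belong to cells that can also express it, rose, with the counts and summed levels given above. The part of these cells in its fall was not tested.

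The ratio of Ccr7 to Cxcr4 within a sample, which scaling between samples cannot change, was 0.736, 0.603 and 0.704 in MWA+PBS and 2.24, 2.34 and 2.15 in MWA+2DG. Cxcr4 was thus the higher of the pair in each MWA+PBS sample and Ccr7 in each MWA+2DG sample. On the log2 scale the ratio was -0.56 ± 0.15 and 1.16 ± 0.06 (SD, n = 3), a difference of 1.72. No test was made on the ratios, as the genes had been chosen with results known.

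Of the chemokine ligands and scavengers of both receptors, 1 of 5 passed the filter on low values. This was Ccl21a, a CCR7 ligand made by stromal cells, which went from 3.62 ± 0.68 to 5.68 ± 0.66 FPKM with 2DG (log2 fold change 0.54, limma adjusted p = 0.0125), a call that was lost after T lineage scaling (0.14, adjusted p = 0.292). Mouse Ccl21 genes are near-identical copies, so this value is uncertain. Ccl19, Cxcl12, Ackr3 and Ackr4 were each below 1 FPKM in every sample. Among these, Cxcl12 was 0.74, 0.87 and 0.59 FPKM in MWA+PBS and 0.38, 0.40 and 0.37 FPKM in MWA+2DG, without overlap, and 1 gene of the list was called lower when no filter on low values was used.

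S1pr1 encodes the receptor that reads S1P at the exits of lymphoid organs. S1pr1 (ENSMUSG00000045092) was 74.58, 74.47 and 75.18 FPKM in MWA+PBS, a spread of under 1 FPKM. It was 129.22, 132.23 and 132.02 FPKM in MWA+2DG, with no overlap between the groups. The means were 74.7 ± 0.382 and 131.2 ± 1.68 FPKM (SD, n = 3), and the log2 fold change was 0.80 ± 0.05 (SE, 95% confidence interval 0.70 to 0.91, limma adjusted p = 1.4e-05). S1pr1 rose more than 97.5% of tested genes and more than each of the 18 T lineage genes, and after scaling to that list its change was 0.40 (limma adjusted p = 0.000367), past both call rules. B cell markers rose with S1pr1 as well, and their part was not tested.

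Cd69, whose product retains cells by removing S1PR1 from the surface, was the lowest of the 7 genes. Cd69 (ENSMUSG00000030156) was 9.85, 11.86 and 8.65 FPKM in MWA+PBS and 9.65, 9.81 and 10.31 FPKM in MWA+2DG. The MWA+2DG samples lay inside the range of the MWA+PBS samples. The means were 10.1 ± 1.62 and 9.92 ± 0.344 FPKM (SD, n = 3), and the log2 fold change of -0.02 ± 0.10 (SE, 95% confidence interval -0.26 to 0.22, limma adjusted p = 0.916) had the widest interval of the 7. After T lineage scaling Cd69 was at -0.42 (limma adjusted p = 0.00576), against the shifted median of -0.36.

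S1pr4, a second S1P receptor of lymphocytes that is not the main egress receptor, did not pass the test either. S1pr4 (ENSMUSG00000044199) was 33.95, 30.95 and 32.25 FPKM in MWA+PBS and 33.95, 31.65 and 32.40 FPKM in MWA+2DG. The groups overlapped almost entirely, and the highest sample of each had the same value. The means were 32.4 ± 1.5 and 32.7 ± 1.17 FPKM (SD, n = 3), a log2 fold change of 0.01 ± 0.06 (SE, 95% confidence interval -0.12 to 0.14, limma adjusted p = 0.88), which turned to -0.39 with T lineage scaling (limma adjusted p = 0.000448).

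The receptor was set against its partner genes within each sample. S1pr1 was 7.57, 6.28 and 8.69 times Cd69 in MWA+PBS and 13.4, 13.5 and 12.8 times Cd69 in MWA+2DG. S1pr1 was 2.20, 2.41 and 2.33 times S1pr4 in MWA+PBS and 3.81, 4.18 and 4.08 times S1pr4 in MWA+2DG. Neither ratio overlapped between the groups, and their log2 differences, 0.83 and 0.80, were close to the log2 fold change of S1pr1 alone.

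**Figure D2:**
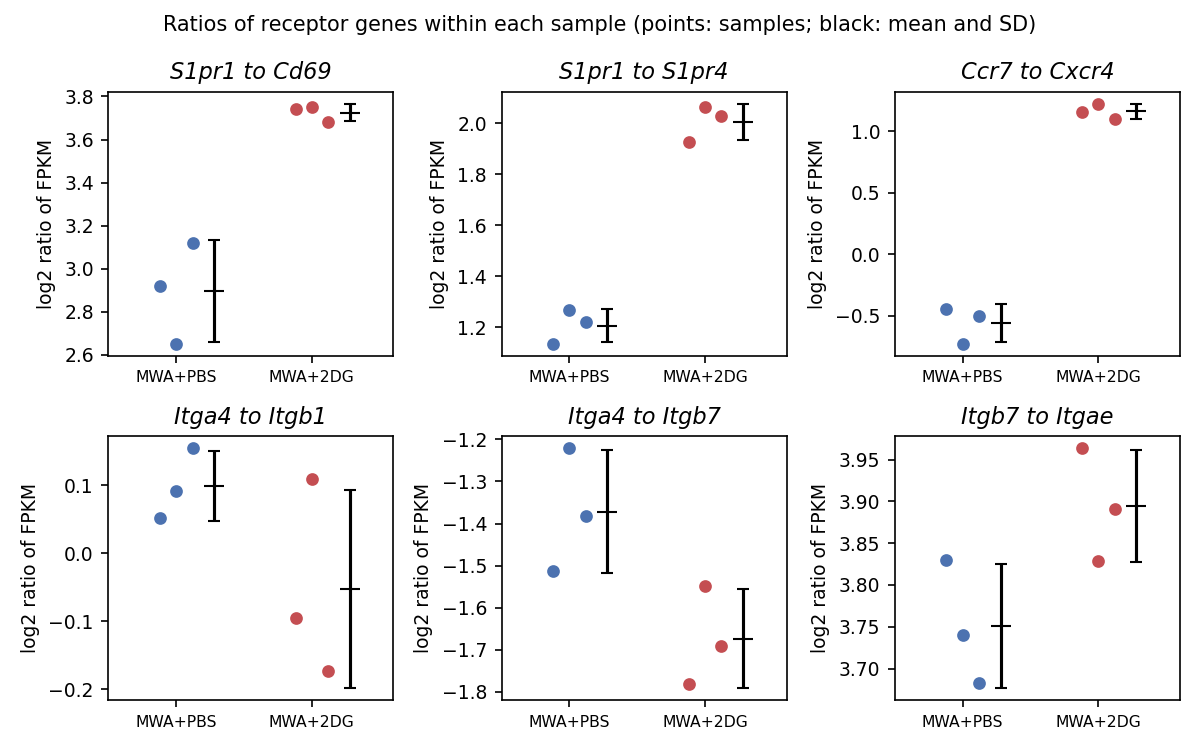
Log2 ratio of the FPKM of a pair of genes within each sample (points, 3 per group) with the group mean and SD in black, for 6 pairs, and with a separate vertical axis per panel that does not start at 0. The groups are apart for S1pr1 to Cd69, S1pr1 to S1pr4, Ccr7 to Cxcr4 and Itga4 to Itgb7, and overlap for Itga4 to Itgb1 and Itgb7 to Itgae.

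Among 12 further genes for S1P receptors and for the making, breaking and export of S1P, 7 were tested, of which 1 was higher, 4 were lower and 2 did not pass, with a median log2 fold change of -0.35. S1pr5, an egress receptor best known in natural killer cells, was the one that rose. S1pr5 was 1.49, 1.33 and 1.85 FPKM in MWA+PBS and 2.95, 2.83 and 3.99 FPKM in MWA+2DG (log2 fold change 0.73 ± 0.13, SE, limma adjusted p = 0.00376), but 0.33 with an adjusted p of 0.0569 after T lineage scaling. S1pr2, a receptor that restrains migration, was between 0.80 and 1.04 FPKM in all 6 samples and stayed below the filter. The larger falls were in Plpp3, a phosphatase that degrades S1P outside the cell (2.43 ± 0.31 against 0.56 ± 0.07 FPKM, log2 fold change -1.13, limma adjusted p = 0.000164), in Spns2, the S1P exporter of endothelium (2.98 ± 0.33 against 0.837 ± 0.093 FPKM, -1.11, adjusted p = 0.000137), and in Mfsd2b, the S1P exporter of red cells and platelets (4.43 ± 0.10 against 1.68 ± 0.12 FPKM, -1.02, adjusted p = 4.94e-05). These 3 are known mainly from cells other than T cells. Erythroid and macrophage markers fell with them. Of 8 endothelial and stromal markers, Pecam1, which T cells also express, held most of the summed level (25.5 to 27.1 FPKM in MWA+PBS, 24.7 to 27.6 in MWA+2DG) and was not called, and the other 7 were under the filter at no more than 1.39 FPKM in any sample. Below the filter, Tie1 was 0.76 to 0.99 FPKM with PBS and 0.13 to 0.30 with 2DG, and Pdgfrb 1.33 to 1.39 and 0.39 to 0.51, while Col1a1 and Col1a2 overlapped. Cdh5 was 0.28 to 0.48 FPKM with PBS and 0 to 0.12 with 2DG, and Kdr 0.11 to 0.12 and 0.01 to 0.03, both without overlap. Emcn was at most 0.07 FPKM in any sample. Listed at 0 in all 3 MWA+2DG samples, Emcn was only a few steps of the 2-decimal rounding above 0 in MWA+PBS. The part of these cell types in the falls was not tested.

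Itgb7 encodes the β7 integrin chain, which pairs with α4 for homing to gut vessels or with αE in epithelium, and it was the highest of the 7 genes. Itgb7 (ENSMUSG00000001281) was 153.48, 136.10 and 145.98 FPKM in MWA+PBS and 181.16, 174.67 and 172.78 FPKM in MWA+2DG. The groups did not overlap, but the gap between them was narrow beside that of S1pr1 or Ccr7. The means were 145.2 ± 8.72 and 176.2 ± 4.40 FPKM (SD, n = 3), a 1.21-fold rise with a log2 fold change of 0.28 ± 0.06 (SE, 95% confidence interval 0.14 to 0.42, limma adjusted p = 0.00892). Its log2 fold change, with its sign, was above that of 78.5% of tested genes but of only 4 of the 18 T lineage genes. T lineage scaling turned it to -0.125 (limma adjusted p = 0.0896), above the shifted median of -0.36. Without MWA+PBS replicate 2, the lowest sample, the log2 fold change was 0.23 and no longer past the fold threshold of the study's rule.

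Itga4, the α4 chain that pairs with β7 or β1, did not pass the test. Itga4 (ENSMUSG00000027009) was 53.77, 58.39 and 56.00 FPKM in MWA+PBS and 52.66, 59.68 and 53.54 FPKM in MWA+2DG. The groups overlapped, with both the lowest and the highest value in MWA+2DG. The means were 56.1 ± 2.31 and 55.3 ± 3.82 FPKM (SD, n = 3), a log2 fold change of -0.02 ± 0.06 (SE, 95% confidence interval -0.17 to 0.13, limma adjusted p = 0.826), and -0.425 after T lineage scaling (limma adjusted p = 0.00181). The ratio of Itga4 to Itgb7 was 0.350, 0.429 and 0.384 in MWA+PBS and 0.291, 0.342 and 0.310 in MWA+2DG, lower in each MWA+2DG sample than in any MWA+PBS sample, with a log2 difference of -0.30.

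The other partner chains were Itgb1, which forms the VCAM-1 receptor with Itga4, and Itgae, which forms the E-cadherin receptor with Itgb7. Itgb1 averaged 52.3 ± 2.27 FPKM with PBS and 57.3 ± 2.67 FPKM with 2DG (log2 fold change 0.13, limma adjusted p = 0.117), and Itgae was 10.8 ± 0.59 and 11.85 ± 0.38 FPKM (0.13, adjusted p = 0.14). Neither passed the test as deposited. After T lineage scaling both were at -0.28 (limma adjusted p = 0.00287 for Itgb1 and 0.0102 for Itgae), above the shifted median of -0.36. Itgae also passed, above 0, once trends on GC content and length were removed (0.17, adjusted p = 0.0273). The ratio of Itga4 to Itgb1 was 1.04, 1.07 and 1.11 in MWA+PBS and 0.936, 1.08 and 0.887 in MWA+2DG, with overlap. Itgb7 was 14.2, 13.4 and 12.8 times Itgae in MWA+PBS and 15.6, 14.2 and 14.8 times in MWA+2DG, also with overlap.

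Of 20 integrin partners, ligands and activators, 18 were tested and 13 of these did not pass, while 2 were higher and 3 lower (median log2 fold change 0.04). Both that rose belong to LFA-1, the integrin that binds ICAM-1. Neutrophil markers and most B cell markers rose as well, and their part in these rises was not tested. Itgal rose from 86.2 ± 4.77 to 115.3 ± 1.80 FPKM (log2 fold change 0.42, limma adjusted p = 0.00106; 0.01 after T lineage scaling), and Itgb2 from 164.1 ± 3.53 to 198.8 ± 11.9 FPKM (0.27, adjusted p = 0.00969; -0.13 after that scaling). Vcam1, the vessel and macrophage ligand of α4β1, fell from 75.7 ± 1.35 to 11.4 ± 0.377 FPKM (-2.63, adjusted p = 1.67e-07). Vcam1 is also in the macrophage list, the other 9 genes of which fell too, and their part in its fall was not tested. Itga5, the fibronectin receptor chain, had a log2 fold change of -0.59 (adjusted p = 0.00381) and Icam1 one of -0.26 (adjusted p = 0.00426). Madcam1, the ligand of α4β7, was at most 0.49 FPKM in any sample.

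FPKM is scaled by length, so levels could be ordered between genes within a group. In MWA+PBS the order of mean FPKM, from the top, was Itgb7, Cxcr4, Ccr7, S1pr1, Itga4, S1pr4 and Cd69, and no neighbours in it overlapped over the 3 samples. In MWA+2DG the order was Itgb7, Ccr7, S1pr1, Cxcr4, Itga4, S1pr4 and Cd69. Here Cxcr4 (57.22 to 63.13 FPKM) and Itga4 (52.66 to 59.68 FPKM) overlapped, and the other neighbours did not. Cxcr4 moved down 2 places, below Ccr7 and S1pr1. Among all 12444 tested genes it went from above 98.1% of them to above 95.6%, while S1pr1 went from 96.5% to 98.1% and Ccr7 from 97.1% to 98.2%.

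**Figure D3:**
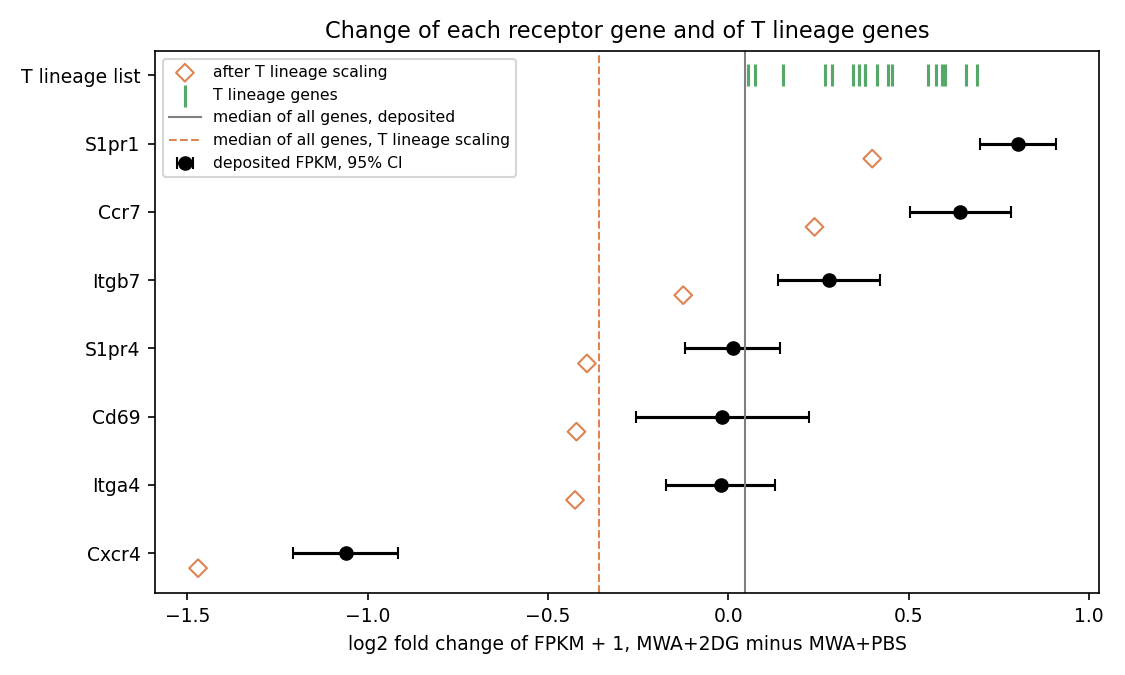
Log2 fold change of FPKM + 1, MWA+2DG minus MWA+PBS, of each of the 7 genes (black points with 95% confidence intervals), their values after T lineage scaling (open diamonds), and the 18 T lineage genes (green ticks). S1pr1 lies to the right of all 18 T lineage genes and Ccr7 to the right of 16, Cxcr4 lies at -1.06, and S1pr4, Cd69 and Itga4 lie near the median of all genes under either scaling (grey line 0.05, dashed line -0.36).

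Promoter sequence was looked at as a feature that the choice of genes had not used. RefSeq promoter windows (GRCm38.p6, 250 bases before to 50 after the start) were found for 4 of the 7 genes, Cxcr4, Itga4, S1pr4 and Itgb7. The 250 upstream bases of Cxcr4 (chr1:128592300-128592549, minus strand) and of Itgb7 (chr15:102231936-102232185, minus strand) are shown because these were the called genes with a window, one lower and one higher. They run 5′ to 3′ along the gene's strand, and capitals mark CACCC or its reverse complement GGGTG, the core of the sites bound by KLF factors.
Cxcr4: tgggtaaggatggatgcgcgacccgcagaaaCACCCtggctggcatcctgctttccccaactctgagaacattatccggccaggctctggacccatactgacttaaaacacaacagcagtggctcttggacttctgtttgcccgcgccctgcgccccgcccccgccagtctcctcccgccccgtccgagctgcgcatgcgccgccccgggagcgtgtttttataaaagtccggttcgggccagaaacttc
Itgb7: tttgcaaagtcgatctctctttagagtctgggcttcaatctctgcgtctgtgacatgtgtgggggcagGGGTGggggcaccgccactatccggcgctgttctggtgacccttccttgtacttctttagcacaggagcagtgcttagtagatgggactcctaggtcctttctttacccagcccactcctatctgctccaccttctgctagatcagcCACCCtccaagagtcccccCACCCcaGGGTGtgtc
Cxcr4 held 1 match and Itgb7 4 matches. Over the whole window of 300 bases, on both strands, CACCC matched once in S1pr4 and 4 times in Itga4, which were not called, and it was present in 57.5% of all 32851 promoters. The AP-1 letters TGANTCA (in 7.81% of promoters) and the FOXO letters GTAAACA (in 3.65%) had 0 matches in the 4 windows. None of the 3 motifs contains another, and a match is a description of the sequence and not a bound site.

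The regulators known for these receptors were measured beside them. Of 8 such genes, all tested, 1 was higher, 2 were lower and 5 did not pass (median log2 fold change -0.02). Foxo1, which encodes a transcription factor upstream of Klf2 and Ccr7, was 21.81, 19.72 and 21.86 FPKM in MWA+PBS and 28.03, 31.25 and 29.70 FPKM in MWA+2DG. These groups did not overlap (log2 fold change 0.47 ± 0.07, SE, limma adjusted p = 0.00117), but the value was 0.07 after T lineage scaling (adjusted p = 0.462). Klf2, which encodes the factor that activates S1pr1 in T cells, was 65.95, 47.80 and 62.59 FPKM in MWA+PBS and 66.89, 76.58 and 64.84 FPKM in MWA+2DG. The groups overlapped, and the log2 fold change was 0.25 ± 0.12 (SE, limma adjusted p = 0.155). It was 0.29 and past the threshold once GC content and length trends were removed (adjusted p = 0.0479), 0.11 without MWA+PBS replicate 2, its lowest sample (adjusted p = 0.325), and -0.16 after T lineage scaling. Zeb2, a repressor active in effector cells, was lower (3.67 ± 0.172 against 1.56 ± 0.072 FPKM, -0.87, adjusted p = 0.000122). Monocyte and macrophage markers fell with Zeb2, and their part in its fall was not tested. Klf3 was slightly lower (32.0 ± 1.05 against 27.9 ± 1.39 FPKM, -0.19, adjusted p = 0.0297), a call that was lost without MWA+PBS replicate 1 or 3 or MWA+2DG replicate 4 or 6 (adjusted p = 0.0589 to 0.106) and with eBayes without a trend (0.0503).

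Genes that carry the signal of these receptors onward included 5 that were higher, 1 that was lower and 6 that did not pass, of 12 tested (median log2 fold change 0.08). Grk6, a kinase that turns off G protein-coupled receptors, rose from 60.6 ± 2.63 to 85.1 ± 3.36 FPKM (log2 fold change 0.48, limma adjusted p = 0.000503). Coro1a, an actin regulator needed for T cell egress, had a log2 fold change of 0.32 (adjusted p = 0.0067), and Arhgef1, a signalling gene downstream of S1P receptors, one of 0.31 (adjusted p = 0.00234). After T lineage scaling Coro1a was at -0.08, Arhgef1 at -0.09 and Grk6 at 0.08, all above the shifted median of -0.36. Arrb1, encoding β-arrestin 1, was lower at -0.29 (adjusted p = 0.034), a call that was lost without the filter on low values and when any sample but MWA+PBS replicate 2 was left out (adjusted p = 0.0522 to 0.111).

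Immediate early genes were included because Cd69 is itself an early activation gene and because AP-1 is made of their products. Of 16 tested, 9 were lower, 3 were higher and 4 did not pass, with a median log2 fold change of -0.67. Jun fell from 76.3 ± 3.14 to 7.57 ± 0.85 FPKM (-3.18), Fosb from 22.9 ± 1.49 to 1.88 ± 0.32 FPKM (-3.06) and Fos from 103.0 ± 5.92 to 15.8 ± 0.66 FPKM (-2.63), with limma adjusted p-values of 3.56e-07, 8.54e-07 and 2.69e-07. Dusp2 rose by 0.70, Egr3 by 0.43 and Btg2 by 0.25 on the log2 scale (adjusted p = 0.00459, 0.0202 and 0.0176), but none of these was called after T lineage scaling, which put Btg2 at -0.16, and the call of Egr3 was lost without the filter on low values (adjusted p = 0.0663) and without MWA+2DG replicate 4 or 5 (0.0553 and 0.0652) and that of Btg2 without MWA+PBS replicate 1 or 3 or MWA+2DG replicate 5 (0.0554 to 0.0582). Cd69 lay between the fallen and the risen genes of this list, at the value near 0 given above.

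**Figure D4:**
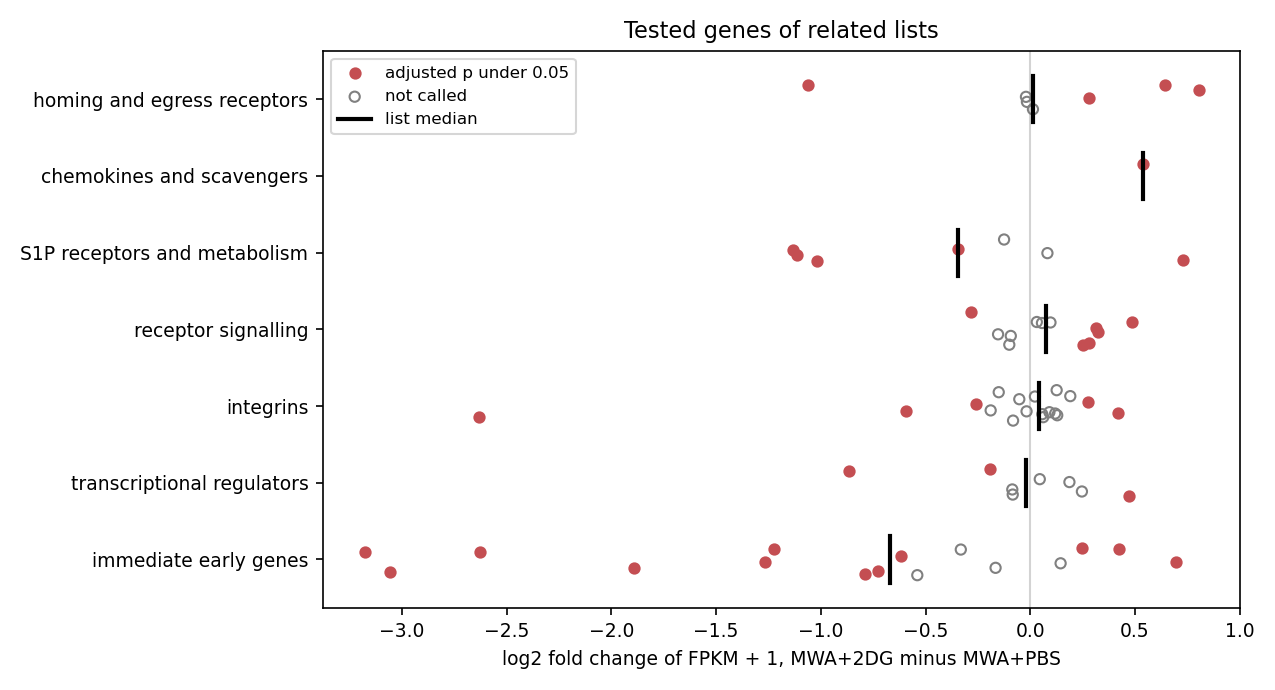
Log2 fold change of FPKM + 1, MWA+2DG minus MWA+PBS, of each tested gene (points) in the 7 receptor genes and 6 related lists, filled where the limma adjusted p is under 0.05, with the list median as a black bar. The receptor genes split into 3 called above 0, 1 called below 0 and 3 near 0, while the immediate early genes spread down to -3.18.

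The genes whose profiles over the 6 samples were most like those of the called receptors were found by Euclidean distance between log2(FPKM + 1) values centred on each gene's mean, among 12437 tested genes. Nearest to Ccr7 were Tmem69 (distance 0.049, log2 fold change 0.67) and the T cell receptor segment Trbv20 (0.0745 and 0.62). S1pr1 was nearest to Cd33 (0.0783 and 0.85), a gene at 0.74 ± 0.03 FPKM in MWA+PBS and at a mean of 2.14 FPKM in MWA+2DG. Cd33 thus passed the filter of a mean of 1 FPKM only through its MWA+2DG level. For Cxcr4 they were Gm42047 (0.118 and -1.08) and Mfsd2b (0.118 and -1.02), the S1P exporter described above. Itgb7 was nearest to Sh2d2a (0.0346 and 0.28), an adaptor gene of T cells, and Sipa1 (0.0517 and 0.26), which encodes an inactivator of the integrin switch RAP1. Both were below 0 after T lineage scaling (-0.13 and -0.14) but above the shifted median of -0.36. The nearest genes of S1pr4, Cd69 and Itga4 had log2 fold changes between -0.04 and 0.01. With 6 samples in 2 groups such distances rest mainly on the difference between the groups.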

How the data were processed

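The authors extracted RNA with Trizol, enriched poly(A) RNA and built libraries that mark the strand, with unique molecular identifiers in the adapters. Their methods name fastp, HISAT2, StringTie and ballgown, and the submitters' processing notes name cutadapt 1.9, HISAT2 2.0.4, UMI-tools, StringTie 1.3.4d and the mm9 build. The deposited values are FPKM per gene and sample, rounded to 2 decimals or fewer. Each value is a share of its own library, so abundant transcripts that gain lower all others, and without counts neither the depth nor a counting interval can be stated. Symbols for 28689 of 28773 IDs came from the GENCODE M21 gene table, whose coordinates are not printed. Promoter windows are RefSeq sequences of GRCm38.p6.

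Genes with a mean of at least 1 FPKM over the 6 samples (12444) were tested on log2(FPKM + 1) with limma 3.58.1 in R 4.3.3 (lmFit and trended eBayes). Tests were two-sided, MWA+PBS was the reference, no covariate was used, and p-values were adjusted by Benjamini-Hochberg over all tested genes. The fit was tested on simulated data. The groups came from the GEO labels. The 7 genes and the 14 related and marker lists were chosen with earlier results of these data known, so counts over a list are descriptions. Named were the 7 genes, up to 3 called genes each way per related list, Itgb1, Itgae, S1pr5, S1pr2, Klf2, Foxo1, Cd8a, Cd3e and Cd4, and the 2 nearest profiles of each called receptor, while those of the others are given as a range. One of these nearest genes is not reported here. Marker lists were summarised, and of these the NK cell list had 3 tested genes (1 higher, Txk, and 1 lower, Ncr1). The dendritic cell list had 3 (all lower, Flt3, Itgax and Ccr9), and the endothelial and stromal list 1 (not called). Alternatives were a pseudocount of 0.1, no filter, a mean of at least 5 FPKM, quantile normalization, median ratio scaling, T lineage scaling, eBayes without a trend, leaving out each sample, and, added after seeing the data, subtraction of smooth trends on length and GC content of transcripts (known for 99.9% of tested genes).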

Additional observations from a re-analysis of the deposited data

How the results depend on the processing

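The log2 fold changes of Ccr7, S1pr1 and Cxcr4 kept their direction and an adjusted p under 0.05 in limma under all 14 alternatives, with ranges over the left-out samples of 0.593 to 0.671, 0.797 to 0.814 and -1.1 to -1.02. Under T lineage scaling they were 0.239, 0.399 and -1.47, and Ccr7 then missed the fold threshold of the study's rule. Itgb7 was 0.234 to 0.32 with a sample left out, all past the adjusted p, but it was under that fold threshold with quantile normalization (0.222) and without MWA+PBS replicate 2 (0.234), and it turned to -0.125 (adjusted p = 0.0896) under T lineage scaling. The same scaling gave -0.392 for S1pr4, -0.421 for Cd69 and -0.425 for Itga4, with adjusted p-values of 0.000448, 0.00576 and 0.00181, because it subtracts 0.404 from every gene. S1pr4 was -0.00343 with quantile normalization and -0.0123 with median ratio scaling. With a sample left out, S1pr4 ranged from -0.0186 to 0.0462, Cd69 from -0.113 to 0.0938 and Itga4 from -0.0759 to 0.0127, none past the threshold. T lineage scaling also turned Coro1a (-0.0836), Arhgef1 (-0.0902), Itgb2 (-0.131), Btg2 (-0.156), Itgb1 (-0.276), Itgae (-0.279), Klf2 (-0.158), Cd3e (-0.0262), Sh2d2a (-0.129) and Sipa1 (-0.142) below 0. All of these lay above the median of all tested genes after that scaling, -0.358. The calls by the study's rule, 4752, became 2562 with a mean of at least 5 FPKM and 8182 with T lineage scaling, and those by adjusted p, 4907, became 2951 (of 7313 genes tested) and 8782. Under T lineage scaling 5.91% of the calls by adjusted p were higher, against 56.5% as deposited. The 6 ratios moved by less than the spread between samples under the alternatives that could be applied to them.

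No paired analysis was possible because titles in the labels run from 1 to 6 without sharing a number between the groups, and nothing in the sources used here ties the numbers 1 to 3, which restart in the column names of each group, to a shared animal, batch or day. The unknown depth and 3 samples per group limit the precision of genes near 1 FPKM, such as S1pr5, S1pr2 and Cd33.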
